A study of Homo sapiens with 12 samples.

Results

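The 38 genes described here encode the enzymes of sterol and fatty acid synthesis, the proteins that switch those enzymes on, and the liver X receptor (LXR) genes of cholesterol export. They were taken by name from a table of 16383 genes, by a list chosen with earlier results of these data known. The condition was a mean normalised count over the 12 libraries of at least 10. All 38 met that condition, as did 11242 genes of the table. By role the list held 7 genes of the mevalonate pathway, 11 of sterol synthesis from squalene and 5 of the sterol-sensing control machinery. It also held 8 of fatty acid synthesis and desaturation, 2 of sterol transport and storage, and 5 of LXR-driven export. The last 5, called export genes below, are the pumps ABCA1 and ABCG1, the receptor genes NR1H3 and NR1H2, and MYLIP.

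RNA was measured by poly(A)-captured sequencing in IMR90 cells, an established wild-type line of human lung fibroblasts grown in medium with fetal bovine serum. The 4 groups held 3 libraries each: untreated proliferating cells, and cells made senescent with 20 Gy of ionising radiation delivered in 10 min and then given DMSO (the solvent control), palbociclib or ruxolitinib. Palbociclib inhibits the cell cycle kinases CDK4 and CDK6, and ruxolitinib inhibits the cytokine-signalling kinases JAK1 and JAK2. Each inhibitor was dosed at 2 µM on 4 occasions, days 4, 6, 8 and 10 counted from irradiation, and RNA of the 3 irradiated groups was taken at day 11. The proliferating cells were labelled as having no treatment, with no vehicle and no day of harvest, so irradiation, vehicle and time in culture cannot be told apart in any comparison with them. Nothing in the labels says that the 3 samples of a group came from separate cultures, so the p-values measure the spread between these samples, which may be technical.

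Cells make cholesterol from acetyl units through mevalonate, farnesyl diphosphate, squalene and a series of sterols, and they make fatty acids from the same acetyl units. Both routes are switched on by the transcription factors SREBP-1 and SREBP-2, the products of SREBF1 and SREBF2, which SCAP escorts from the endoplasmic reticulum when membrane sterol is low and which the INSIG proteins hold back when sterol is plentiful. SREBP-2 is best known for the cholesterol genes and SREBP-1 for the fatty acid genes. When oxidised sterols accumulate, the nuclear receptors LXRα and LXRβ (NR1H3 and NR1H2) instead raise the export pumps ABCA1 and ABCG1, and MYLIP, a ubiquitin ligase that removes lipoprotein receptors.

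SREBPs act at promoters together with the CCAAT-binding factor NF-Y, so the promoter sequences of 6 members on which the results turn are shown. They are the 250 bases before the start site in RefSeq, build GRCh38.p14, written 5′ to 3′ on the gene's strand. Capitals mark CCAAT boxes, which read ATTGG where the box lies on the opposite strand, and exact matches to TCACNCCAC, a sterol regulatory element core. The windows are chr4:165327419-165327668 for MSMO1 (plus strand), chr5:111512536-111512785 for STARD4 (minus strand), chr10:100346983-100347232 for SCD (plus), chr7:155297628-155297877 for INSIG1 (plus), chr22:41832855-41833104 for SREBF2 (plus) and chr6:16128836-16129085 for MYLIP (plus). MSMO1, STARD4 and SCD had the largest called rises with palbociclib, SREBF2 encodes the factor itself, INSIG1 fell after irradiation without a called change with palbociclib, and MYLIP had the largest called fall.
MSMO1: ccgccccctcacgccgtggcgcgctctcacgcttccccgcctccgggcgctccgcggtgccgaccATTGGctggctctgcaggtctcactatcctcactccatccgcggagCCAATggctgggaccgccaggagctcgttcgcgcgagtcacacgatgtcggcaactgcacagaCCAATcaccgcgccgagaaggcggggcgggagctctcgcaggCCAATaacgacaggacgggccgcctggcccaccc
STARD4: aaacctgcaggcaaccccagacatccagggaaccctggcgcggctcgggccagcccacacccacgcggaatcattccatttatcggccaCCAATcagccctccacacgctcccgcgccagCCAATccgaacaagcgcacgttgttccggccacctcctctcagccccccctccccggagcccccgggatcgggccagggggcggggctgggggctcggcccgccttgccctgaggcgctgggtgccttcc
SCD: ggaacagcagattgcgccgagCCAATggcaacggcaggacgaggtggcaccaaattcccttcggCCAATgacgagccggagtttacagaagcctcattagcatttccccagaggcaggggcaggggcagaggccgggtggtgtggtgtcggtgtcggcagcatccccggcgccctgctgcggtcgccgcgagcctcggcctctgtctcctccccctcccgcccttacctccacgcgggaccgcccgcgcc
INSIG1: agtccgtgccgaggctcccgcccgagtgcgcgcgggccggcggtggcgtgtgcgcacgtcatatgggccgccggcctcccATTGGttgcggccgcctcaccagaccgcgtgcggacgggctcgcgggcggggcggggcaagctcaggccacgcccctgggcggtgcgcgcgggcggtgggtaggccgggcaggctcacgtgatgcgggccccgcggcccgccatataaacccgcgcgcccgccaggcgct
SREBF2: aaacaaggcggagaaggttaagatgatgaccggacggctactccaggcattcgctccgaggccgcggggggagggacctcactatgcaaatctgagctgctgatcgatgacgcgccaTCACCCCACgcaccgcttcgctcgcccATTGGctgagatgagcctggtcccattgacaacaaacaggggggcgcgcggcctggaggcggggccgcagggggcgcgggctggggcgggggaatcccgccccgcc
MYLIP: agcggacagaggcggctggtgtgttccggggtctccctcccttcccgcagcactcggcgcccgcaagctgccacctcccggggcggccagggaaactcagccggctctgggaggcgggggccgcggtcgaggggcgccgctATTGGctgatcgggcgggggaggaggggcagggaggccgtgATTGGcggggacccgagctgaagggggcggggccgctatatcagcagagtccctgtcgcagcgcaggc
The MSMO1 window held 4 CCAAT boxes, those of STARD4, SCD and MYLIP 2 each, and those of INSIG1 and SREBF2 1 each. The exact TCACNCCAC core appeared in SREBF2 alone among the members, starting 133 bases before the start site.

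RefSeq windows were at hand for 33 of the 38 members, and for these the full window of 300 bases (250 before and 50 after the start) was searched on both strands. A CCAAT box was found in 23 of 33 members (69.7%), against 43.8% of the 9163 tested genes that had a window and 34.6% of all 35116 windows. The Sp1 box GGGCGG was found in 32 of 33 members (97%), against 77.2% of tested genes. TCACNCCAC was found in 1 of 33 members (3.03%) against 1.44% of tested genes, and with 1 mismatch allowed, a search added later that also counts the exact match, in 16 of 33 (48.5%) against 31.2%. The LXR element, a direct repeat of AGGTCA spaced by 4 bases, was found in 0 of the 33 members. That held for exact matches and for 1 mismatch over the whole repeat. Of tested genes 0.0109% had the exact repeat and 0.175% had it with 1 mismatch. Looser matches were not counted. The ABCA1 window holds tgaccgatagtaacct, such a repeat on the opposite strand with 1 mismatch in each AGGTCA. The CCAAT box was present in 13 of the 16 members with a window that rose with palbociclib against DMSO. It was in 3 of the 3 that fell and in 7 of the 14 not called. With DMSO against proliferating cells it was in 7 of 12 that rose, 8 of 12 that fell and 8 of 9 not called. A gene with several windows was counted if any held the word, and CCAAT on the 2 strands can overlap as CCAATTGG, as in NSDHL and IDI1. These matches describe letters in a window and were not tested.

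Values are normalised counts as deposited, and differences are log2 fold changes on the log2(value + 1) scale from one limma fit over all 11242 genes, called at a Benjamini-Hochberg adjusted p under 0.05. The libraries carried 14106799 to 21762412 recovered reads over the listed genes. Within groups, the libraries named A120 (palbociclib) and A126 (proliferating) stood apart from their partners, with a chi-square per gene of up to 25.1 and 17.1 between replicates against 1.98 to 6.43 among the other pairs. All 10 fibroblast markers passed the mean filter, and the proliferation gene MKI67 changed by -3.68 on the log2 scale after irradiation with DMSO and by -3.60 more with palbociclib. The interferon-induced gene MX1 changed by -6.56 with ruxolitinib and by -4.13 with palbociclib against DMSO. In bulk RNA, fewer cells of a type and less RNA per cell cannot be told apart.

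Senescent cells given DMSO differed from proliferating cells in 28 of the 38 genes, but the list did not move one way: 14 rose and 14 fell. Of all tested genes 33% rose and 39.3% fell, so the members' shares lay near that background in both directions. The median log2 fold change of the members was 0.13, against -0.05 over all tested genes. The roles separated instead. Sterol synthesis from squalene was higher (6 of 11 rose, 1 fell, median 0.61), and at equal library totals 10 rose and 1 fell. Fatty acid synthesis and desaturation was lower (1 of 8 rose, 5 fell, median -0.50), and at equal totals 2 rose and 4 fell. The mevalonate genes were mixed (2 of 7 rose, 3 fell), as they were at equal totals (3 rose, 1 fell). Equal totals moved the median gene by 0.23, and 46.9% of all tested genes then rose and 26.4% fell.

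In the mevalonate pathway, ACAT2, the cytosolic thiolase that joins acetyl units, was at 1221, 1176 and 1218 in the 3 proliferating libraries and at 570.1, 614 and 633 with DMSO. The groups did not overlap, and ACAT2 fell with a log2 fold change of -0.99 (SE 0.07, adjusted p 2.09e-09). HMGCS1, which makes HMG-CoA in the following step, moved the other way, from 746, 733 and 719 to 1185, 1139 and 1052. Every DMSO library lay above every proliferating one, and the log2 fold change was 0.62 (SE 0.06, adjusted p 7.18e-08). Of the other members, the mevalonate kinase MVK (-0.39) and the phosphomevalonate kinase PMVK (-0.44) fell and the isoprenoid isomerase IDI1 rose (0.30), while MVD (0.17) and FDPS (-0.10) were not called. The falls of MVK and PMVK were lost at equal library totals and at equal upper quartiles, and that of PMVK without A117. MVD was called higher without A126, at equal totals and at equal upper quartiles. ACAT2 and FDPS share 17.2% and 18.6% of their annotated exon bases with genes on the opposite strand, and because the counting is not stated to use strand, such reads cannot be told apart.

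In sterol synthesis the largest difference was that of TM7SF2, a sterol reductase of the nuclear envelope and endoplasmic reticulum. It was at 15.6, 26.6 and 21.9 in proliferating cells and 111, 118 and 124 with DMSO, low counts in both but well separated, with a log2 fold change of 2.44 (SE 0.17, adjusted p 3.85e-09). MSMO1, the sterol C4-methyl oxidase, was at 693, 749 and 664 and 1338, 1252 and 1310.1. Its 2 groups were far apart, and the log2 fold change was 0.89 (SE 0.06, adjusted p 1.00e-09). DHCR7 (0.77) and SC5D (0.76), which act near the end of the route, also rose, as did CYP51A1 (0.67), the lanosterol demethylase, and SQLE (0.61), the squalene epoxidase. EBP, the sterol isomerase upstream of SC5D and DHCR7, was the member that fell (-0.81). FDFT1 (0.15), LSS (0.05), NSDHL (0.09) and HSD17B7 (0.26) were not called, although FDFT1 was without A119, A120 or A126 and with edgeR or DESeq2, and all of them were at equal totals.

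Of the 5 control genes 2 rose and 3 fell (2 and 2 at equal totals). INSIG1, itself a target of the SREBPs, was at 1238, 1331 and 1346 in proliferating cells and at 464, 479 and 449.8 with DMSO. It fell with a log2 fold change of -1.49 (SE 0.08, adjusted p 8.16e-11), the largest called fall of any member in this comparison. SREBF1 was at 1472, 1849.9 and 1513 and 772, 825 and 770.1, groups again far apart, and fell with a log2 fold change of -1.02 (SE 0.08, adjusted p 1.21e-08). SREBF2 changed little by comparison, from 2262, 2434 and 2499 to 2097, 2023 and 2074. Its log2 fold change was -0.21 (SE 0.05, adjusted p 0.0014), and at equal library totals it was 0.01 and not called. INSIG2 (0.27) and SCAP (0.21) rose slightly. The rise of INSIG2 was lost without A126 or A116, and that of SCAP without A125 or A118.

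Of the fatty acid genes, SCD, the desaturase that makes oleate, was at 7780.0, 8379 and 8948 in proliferating cells and 3459, 3586 and 3546 with DMSO. The lowest proliferating library was above 3459 to 3586, the whole DMSO range, and the log2 fold change was -1.24 (SE 0.06, adjusted p 3.72e-11). The polyunsaturated fatty acid desaturases FADS2 (-0.84) and FADS1 (-0.48), the fatty acid synthase FASN (-0.52) and the elongase ELOVL6 (-0.35) also fell. At equal library totals ELOVL6 was no longer called. LPIN1, a phosphatidate phosphatase of glyceride synthesis, was the one that rose (0.64), and ACLY, which supplies cytosolic acetyl-CoA, was not called (0.11), but was called higher without A120 or A127, with edgeR or DESeq2, at equal totals and at equal upper quartiles. ACACA, the acetyl-CoA carboxylase, was listed at only 1.16 to 44 over the 12 libraries, and its groups overlapped in every comparison. No difference of ACACA was called with all libraries, but without A116 or A120 it was called lower with DMSO than in proliferating cells, and without A120 higher with palbociclib, so no direction is given for it.

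Transport, storage and export gave smaller differences. SOAT1, which esterifies cholesterol for storage, was at 2736, 2451 and 2772 in proliferating cells and 1961, 1986 and 1999 with DMSO, without overlap, and fell with a log2 fold change of -0.42 (SE 0.06, adjusted p 6.01e-06). STARD4, a soluble sterol carrier, had a small called fall (-0.19), which was lost with edgeR, with DESeq2, without A116 or A125, and at equal totals, where the value was 0.04. ABCG1, a pump that passes cholesterol to lipoprotein particles, was at 247, 285 and 256 and 305, 308 and 311. The groups did not overlap but lay close, at 0.23 (SE 0.09, adjusted p 0.035) on the log2 scale, and the call was lost without any one of A116, A117, A118, A125 or A127. ABCA1, the pump that loads lipid-poor apolipoprotein, overlapped between the groups, at 1319.8, 1229.9 and 1451 against 1501, 1357 and 1586, and was not called at 0.15 (SE 0.10, adjusted p 0.186). NR1H3, the LXRα gene, was scarce at 70.6, 82.1 and 62.8 and 90.1, 111 and 93.7. It rose with a log2 fold change of 0.45 (SE 0.15, adjusted p 0.0124), which was not called without A117 or A127. NR1H2 rose by 0.22, not called without A117, A125 or A127, and MYLIP was not called at 0.19. Of the 5 export genes 3 rose, and at equal library totals, where 46.9% of all tested genes rose, 5 did.

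**Figure D1:**
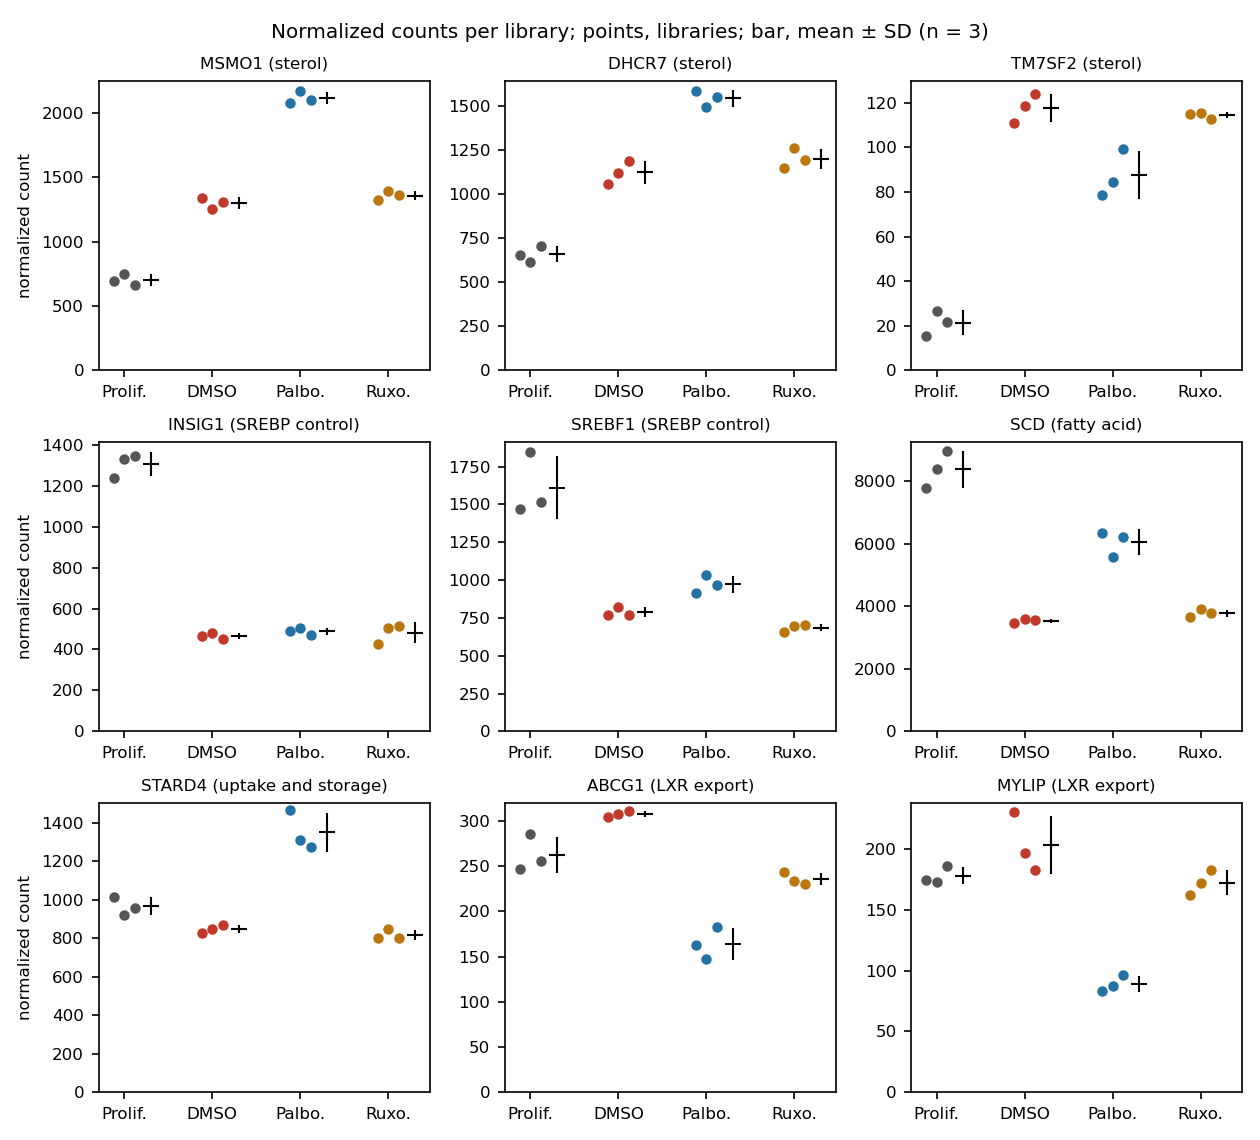
Normalised counts (vertical axis, linear, from 0) of 9 members in each library of the 4 groups; points are libraries and the bar beside them is the mean ± SD (n = 3). MSMO1 and DHCR7 step up with irradiation and again with palbociclib, INSIG1 steps down and stays there, SCD and SREBF1 fall and partly return with palbociclib, and MYLIP lies at 83.0 to 95.9 with palbociclib, below the other 9 libraries.

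With palbociclib, 20 of the 38 members rose and 4 fell against DMSO under the authors' scaling, and 9 rose and 11 fell at equal library totals. Under the authors' scaling 26% of all tested genes rose and 22.3% fell, and the members' median log2 fold change was 0.24 against 0.02 over all tested genes. Equal library totals moved the median gene by -0.23, and 8.36% of all tested genes then rose and 46% fell. The 9 members that rose there were DHCR7, FADS2, FDPS, MSMO1, MVD, SC5D, SCD, SREBF2 and STARD4. With edgeR or with DESeq2 on recovered reads 19 of the 20 rises were kept, and LPIN1 was the one lost. Without library A120, 21 members rose and 3 fell.

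The 20 rises were in both synthesis routes and none was an export gene. They were 5 of 7 mevalonate genes (median 0.27), 7 of 11 sterol genes (0.30, with 1 fall), 5 of 8 fatty acid genes (0.23), 2 of 5 control genes (0.07) and STARD4 of the transport pair. At equal totals the counts that rose were 2 of 7, 3 of 11, 2 of 8 and 1 of 5, the medians were 0.04, 0.07, -0.00 and -0.15, and STARD4 still rose. Of the 5 export genes 3 fell, with a median of -0.41, and at equal totals 4 fell, with a median of -0.63.

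MVD, the decarboxylase that completes isopentenyl diphosphate, was at 616, 853 and 746 in the 3 palbociclib libraries against 473, 485 and 531 with DMSO. Every palbociclib library lay above every DMSO library, with a log2 fold change of 0.56 (SE 0.11, adjusted p 0.000914). FDPS, the farnesyl diphosphate synthase, stood at 2292, 2548 and 2302 against 1736, 1677 and 1641, again without overlap, and its log2 fold change was 0.50 (SE 0.05, adjusted p 2.51e-06). MVK (0.39), ACAT2 (0.27) and IDI1 (0.27) rose as well, MVK no longer without A120. HMGCS1 stayed within the DMSO range, at 1092, 1090.3 and 1135 against 1185, 1139 and 1052 (-0.02, not called), and PMVK was not called (0.25) except without A119. At equal totals HMGCS1 was called lower. HMGCS1 shares 37.7% of its annotated exon bases with an antisense RNA gene, whose reads cannot be told apart from its own.

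Of the sterol genes, MSMO1 was at 2079, 2167 and 2103 with palbociclib against 1338, 1252 and 1310.1 with DMSO, a 1.63-fold difference with tight replicates. Its log2 fold change was 0.70 (SE 0.06, adjusted p 9.27e-08), so that the gene stood 1.59 above proliferating cells on the log2 scale. DHCR7 (0.46), SC5D (0.41), LSS (0.38), SQLE (0.36), FDFT1 (0.30) and CYP51A1 (0.24) rose less. HSD17B7, the sterol ketoreductase that works beside MSMO1 and NSDHL in removing the C4 methyl groups, went the opposite way, at 68.6, 54.7 and 74.6 against 113, 108 and 109. These low counts did not overlap, and the log2 fold change was -0.74 (SE 0.17, adjusted p 0.0019). TM7SF2, the gene with the largest rise after irradiation, was at 78.6, 84.3 and 99.5 against 111, 118 and 124. Its groups did not overlap, but the difference of -0.43 just missed the threshold (adjusted p 0.0506). It passed under other settings, among them edgeR, DESeq2, equal totals, equal upper quartiles and leaving out A121, A125 or A126. NSDHL (0.19) was called only without A119, and EBP (0.06) was not called. CYP51A1 and EBP share 68.2% and 36.4% of their annotated exon bases with other same-strand gene models, so their counts are uncertain.

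Both SREBP genes rose, SREBF1 no longer at equal library totals. SREBF2 was at 2798, 2707 and 2916 with palbociclib, above 2023 to 2499, the range of the other 9 libraries, and its log2 fold change from DMSO was 0.44 (SE 0.05, adjusted p 5.19e-06). SREBF1 was at 916, 1031 and 967 against 772, 825 and 770.1, above DMSO without overlap yet below every proliferating library, with a log2 fold change of 0.30 (SE 0.08, adjusted p 0.00617). INSIG1 was at 489, 506 and 469.9 against 464, 479 and 449.8, overlapping ranges. Its log2 fold change was 0.07 (SE 0.08, adjusted p 0.456), so the gene that fell most after irradiation had no called change with palbociclib. INSIG2 (-0.04) and SCAP (0.01) were not called, and at equal totals both were called lower.

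SCD showed the largest called rise of all members with palbociclib, at 6349.9, 5586 and 6208 against 3459, 3586 and 3546. That is 1.71-fold, without overlap, at 0.77 (SE 0.06, adjusted p 6.04e-08) on the log2 scale, and it left SCD -0.47 on the log2 scale from proliferating cells, still lower. FADS2 (0.44), ACLY (0.24) and FASN (0.21) rose, FASN and ACLY no longer at equal totals, where FASN stood at -0.01. LPIN1 rose by 0.16, a call lost under 14 of the 22 alternative settings, among them leaving out any 1 irradiated library other than A120. FADS1 (0.09) was called higher without A120 and lower at equal totals, and ELOVL6 (0.10) was not called. FADS1 and FADS2 lie head to head and share 490 annotated exon bases on opposite strands.

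STARD4 was at 1467, 1313 and 1277 with palbociclib against 828, 851 and 868 with DMSO and 1017, 924 and 959 in proliferating cells. The palbociclib libraries were the highest of the 12, and the log2 fold change from DMSO was 0.67 (SE 0.06, adjusted p 5.95e-07). SOAT1 was not called (-0.12), but was called lower with edgeR, with DESeq2 and without A126. At equal totals and at equal upper quartiles SOAT1 was called lower too.

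Of the export genes MYLIP, ABCG1 and NR1H3 fell, and of these only ABCG1 encodes a pump. MYLIP was at 83.0, 87.6 and 95.9 with palbociclib against 229.6, 197 and 183 with DMSO, less than any other library of the study. Its log2 fold change of -1.18 (SE 0.11, adjusted p 4.47e-07) was the largest called change of any member in this comparison. ABCG1 was at 163, 148 and 183 against 305, 308 and 311, also lower than in every other library, with a log2 fold change of -0.91 (SE 0.09, adjusted p 1.36e-06). NR1H3 was at 68.6, 72.2 and 79.9 against 90.1, 111 and 93.7 and had a log2 fold change of -0.41, a call lost without A117, A118, A119 or A120. ABCA1, at 1513, 1064 and 1280.0, spread widely and overlapped DMSO, and its log2 fold change of -0.22 (SE 0.10, adjusted p 0.0894) was not called. ABCA1 was called lower without A119 (-0.34), at equal totals (-0.44) and at equal upper quartiles. NR1H2 was not called (0.12) except, as higher, without A119, and it shares 22.1% of its annotated exon bases with NAPSA on the opposite strand.

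**Figure D2:**
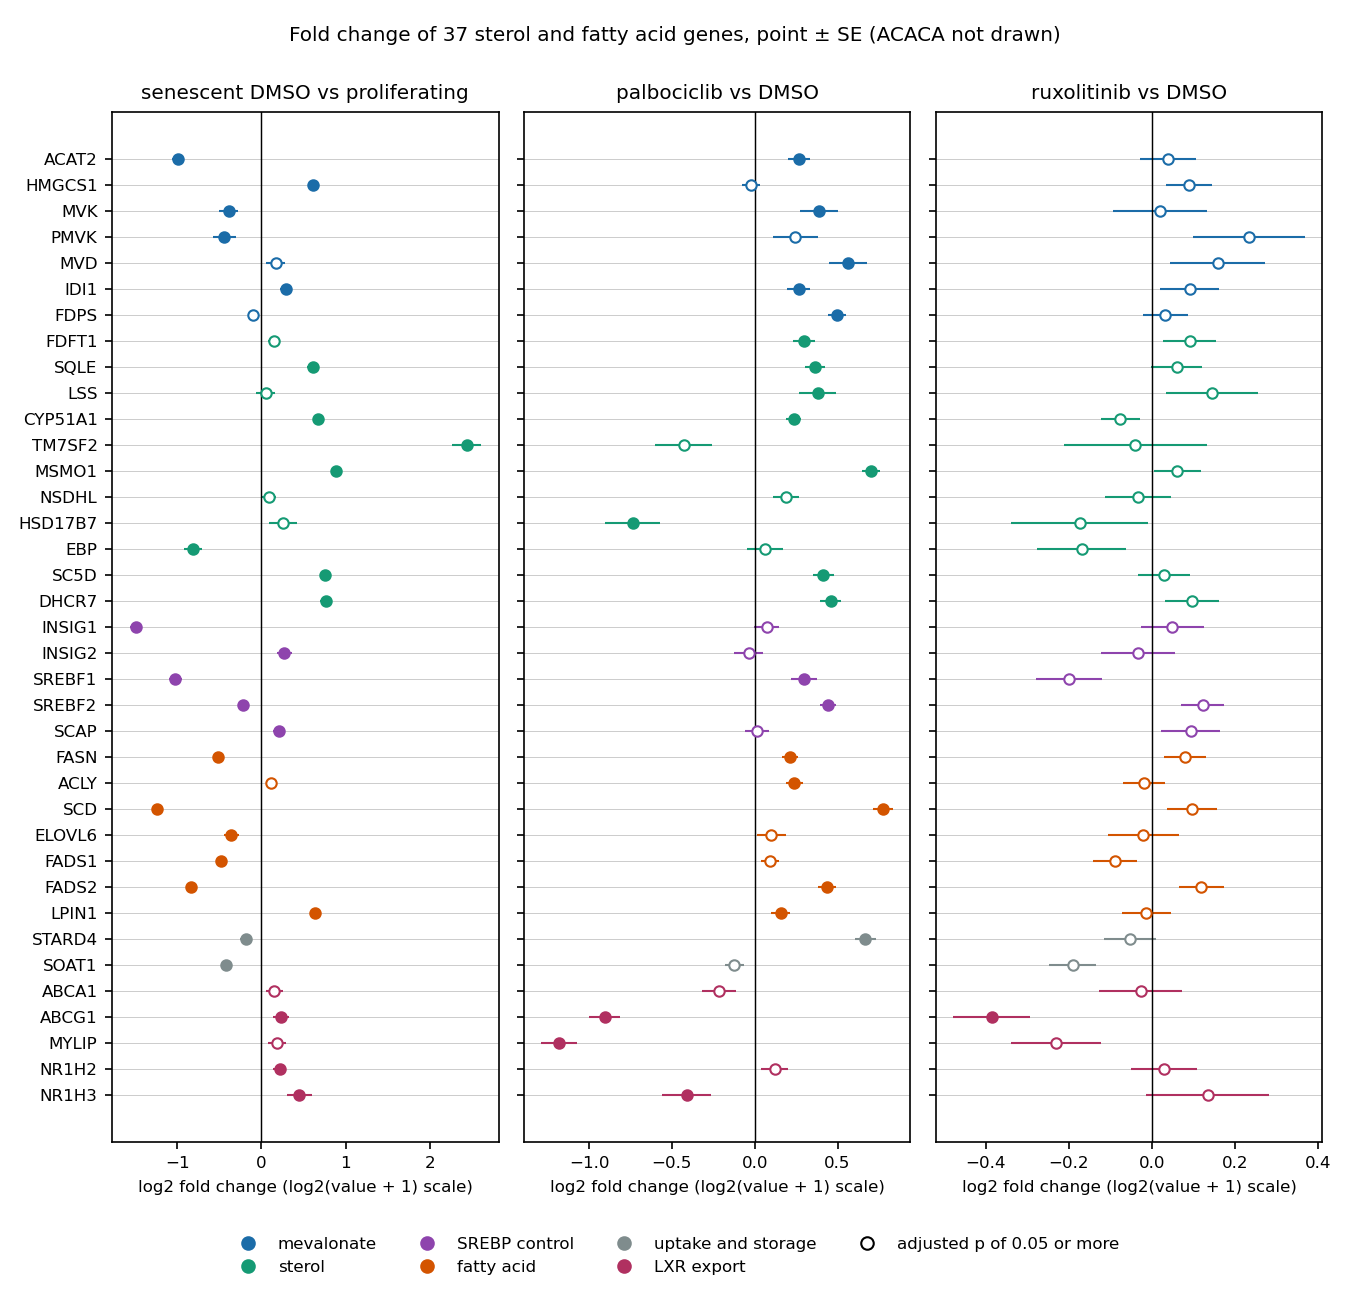
Log2 fold change (horizontal axis, log2(value + 1) scale, with a different range in each panel) of 37 members in 3 comparisons; points are the estimate ± SE, filled where the adjusted p was under 0.05 and coloured by role, and ACACA is not drawn. Irradiation gives both signs, palbociclib gives 20 called rises (9 at equal library totals, with 11 falls) and falls of ABCG1, MYLIP, NR1H3 and HSD17B7, and ruxolitinib leaves 36 of the 37 drawn points open.

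Ruxolitinib gave almost no called difference in these genes. Of the 38 members 0 rose and 1, ABCG1, fell, while 1.1% of all tested genes rose and 3.42% fell. The median log2 fold change was 0.03 against -0.00 over all tested genes. At an unadjusted p under 0.05, limma gave 2 members higher (SREBF2 and FADS2) and 4 lower (SREBF1, SOAT1, ABCG1 and MYLIP). By edgeR 0 were higher and 1 lower, and by DESeq2 0 were higher and 2 lower. ABCG1 was at 243, 233 and 230.1 with ruxolitinib against 305, 308 and 311 with DMSO, without overlap, and its log2 fold change was -0.39 (SE 0.09, adjusted p 0.0249). That call was lost when any single DMSO or ruxolitinib library was left out (adjusted p up to 0.108). SREBF1, at 657, 697 and 706, had a log2 fold change of -0.20 (SE 0.08, adjusted p 0.213), and SREBF2, at 2291, 2193 and 2260.3, one of 0.12 (SE 0.05, adjusted p 0.245); neither overlapped DMSO and neither was called. INSIG1 (425, 505 and 517) and ABCA1 (1463, 1423 and 1467) overlapped DMSO, at 0.05 (SE 0.08, adjusted p 0.825) and -0.03 (SE 0.10, adjusted p 0.946). A difference that misses the threshold does not show equal levels. On simulated palbociclib and DMSO libraries, 60% of genes changed by 0.38 on the log2 scale were called, and 98% of those raised by 1. In that simulation 11042 of 11242 genes were unchanged, and the rates depend on that share. Ruxolitinib was not simulated, so the rates for its comparison are not known.

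The direct comparison of the 2 inhibitors placed 20 members above and 4 below ruxolitinib with palbociclib, against 22.8% and 17.6% of all tested genes, with a median of 0.19 against 0.02. At equal library totals the counts were 7 and 9, against 7.53% and 40.3% of all tested genes. At equal upper quartiles they were 13 and 7, against 15.1% and 24%. By role, 4 of 7 mevalonate, 7 of 11 sterol, 2 of 5 control and 6 of 8 fatty acid genes were higher, and 3 of 5 export genes were lower. At equal totals these counts were 1, 3, 1 and 1 higher and 4 lower. STARD4 stood at 804, 848 and 804 with ruxolitinib, near its DMSO level and far below palbociclib, a difference of 0.72 (SE 0.06, adjusted p 3.56e-07). SCD, at 3664, 3897 and 3768, differed by 0.68 (SE 0.06, adjusted p 3.59e-07), and MSMO1, at 1321, 1389 and 1361, by 0.64 (SE 0.06, adjusted p 3.56e-07). SREBF1 was lower with ruxolitinib than with DMSO in each library and higher with palbociclib, so the inhibitors lay 0.50 (SE 0.08, adjusted p 0.00015) apart. MYLIP, at 162, 172 and 182 with ruxolitinib, differed by -0.95 (SE 0.11, adjusted p 6.18e-06), and ABCG1 by -0.52 (SE 0.09, adjusted p 0.000399), ruxolitinib lying between DMSO and palbociclib for ABCG1. SREBF2 differed by 0.32 (SE 0.05, adjusted p 0.000153), which was not called at equal totals, and INSIG1 (0.02) was not called. ABCA1 (-0.19) was called lower without A119, at equal totals and at equal upper quartiles. The call of FASN was lost under 16 of the 22 alternative settings, edgeR and DESeq2 among them, and those of NSDHL and LPIN1 under 10 each. Single libraries also ended the calls of HSD17B7 (A120 or A122), FDFT1 (A120, A122 or A124), MVK (A120 or A124), ACAT2 (A120), MVD (A122) and FADS1 (A121 or A123).

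Against proliferating cells, both inhibitor groups held members called in each direction. With palbociclib 20 members were higher and 13 lower (35.2% and 38.6% of all tested genes), and with ruxolitinib 15 were higher and 12 lower (32.6% and 39.5%). At equal library totals the palbociclib counts stayed at 20 and 13 (35.4% and 38.4%). Those with ruxolitinib were then 20 and 9 (44.8% and 27.9%), so the contrast of 20 with 15 rested on the scaling. These comparisons share their control libraries, so their likeness is not a result. Of the 11 sterol genes 9 were higher with palbociclib than in proliferating cells and 2, EBP (-0.75) and HSD17B7 (-0.48), were lower. SC5D and DHCR7 stood at 1.17 and 1.23, against 0.79 and 0.86 with ruxolitinib. Of the 8 fatty acid genes 5 were lower with palbociclib, among them FADS2 at -0.40 and FASN at -0.30, where ruxolitinib gave -0.72 and -0.44. INSIG1 was -1.42 with palbociclib and -1.44 with ruxolitinib. SREBF2 was above proliferating cells with palbociclib (0.23) and not called with ruxolitinib (-0.09).

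**Figure D3:**
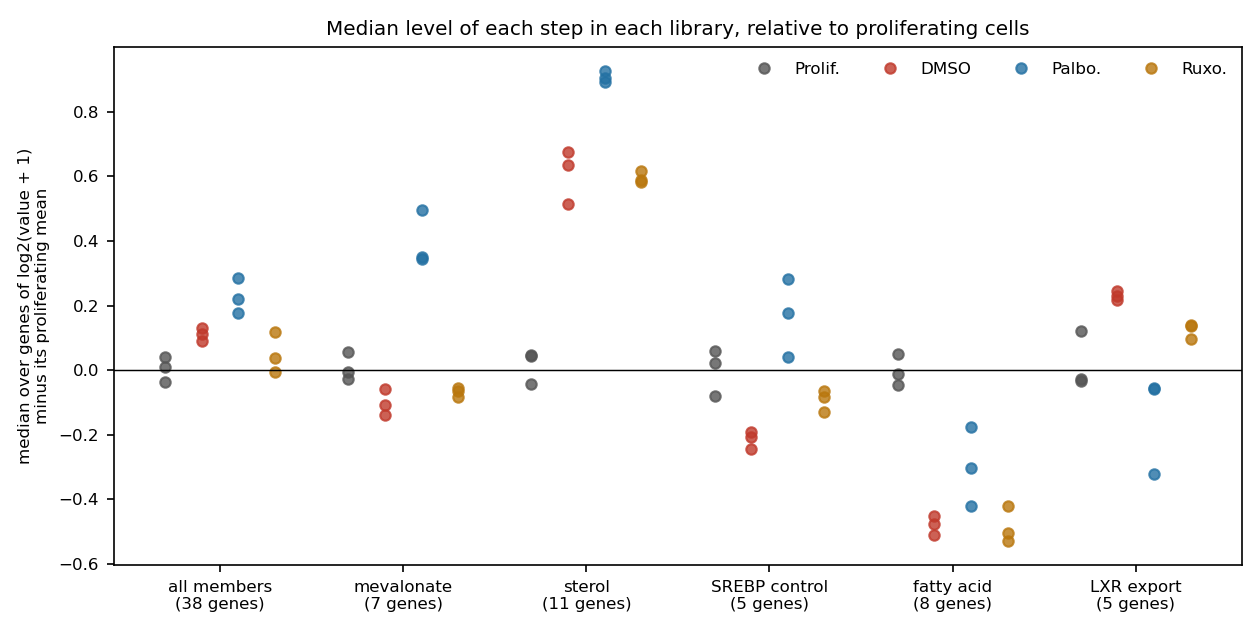
For each library, the median over the genes of a role of log2(value + 1) minus the mean of proliferating cells (vertical axis, log2 units); each point is 1 library and the transport pair is left out. The sterol genes lie at 0.52 to 0.68 with DMSO and 0.89 to 0.93 with palbociclib, the fatty acid genes at -0.51 to -0.45 and -0.42 to -0.18, and the export genes at 0.22 to 0.25 and -0.32 to -0.06.

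Levels can be compared between genes only per length. Per kilobase of annotated exon, ACLY (1759.8) and SCD (673) had the highest normalised counts of all members with DMSO, and the order of these 2 held in proliferating cells (ACLY 1631, SCD 1596). MSMO1 (456), CYP51A1 (454) and FDPS (453) came next with DMSO. With palbociclib MSMO1 (742) was above FDPS (640.4), whereas in proliferating cells it was below it (246 against 486). SREBF2 (256) was above SREBF1 (95.8) with DMSO, and ABCA1 (131) above ABCG1 (50.3). The lowest were ACACA (0.612), NR1H3 (21.7) and MVK (22.2). These are levels on the scale of normalised counts per kilobase, without a test.

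Further genes of the pathway, not members, were read in lists that were also chosen with earlier results of these data known. Their counts stand beside the same shares of all tested genes: with palbociclib against DMSO 26% rose and 22.3% fell (8.36% and 46% at equal totals), and with DMSO against proliferating cells 33% rose and 39.3% fell (46.9% and 26.4%). Of 11 genes that cleave the SREBPs or degrade sterol-regulated proteins, 8 rose with palbociclib against DMSO, among them SEC24D (0.31) of the vesicle coat that carries SCAP. At equal library totals 0 rose and 3 fell, so the direction of the calls rested on the scaling, and the share that fell was below that of all tested genes. Against proliferating cells, 5 of these 11 rose and 4 fell with DMSO (7 and 2 at equal totals), near the background. Of 18 tested genes of fatty acid supply, activation and elongation, 8 rose and 3 fell with palbociclib, and 4 rose and 6 fell at equal totals. HACD1 (1.08), a dehydratase of elongation, and ACSS2 (0.70), which makes acetyl-CoA from acetate and was at 996, 1078 and 1019 against 651, 613 and 642, rose most. ELOVL4 fell (-0.74). SCD5, the second stearoyl-CoA desaturase, rose after irradiation (1.41), the opposite direction to SCD.

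Of 14 tested genes of intracellular sterol handling, 8 rose and 3 fell with DMSO against proliferating cells, and 5 rose and 2 fell with palbociclib against DMSO (3 and 4 at equal totals). NPC1, the lysosomal cholesterol exporter, was at 1130.0, 1061 and 1264 in proliferating cells, 2923, 2697 and 3126 with DMSO, 1912, 1516 and 1789.9 with palbociclib and 2066, 2089 and 2089 with ruxolitinib. The DMSO libraries were the highest of the 12. On the log2 scale NPC1 changed by 1.34 (SE 0.08, adjusted p 7.99e-10) after irradiation, by -0.75 (SE 0.08, adjusted p 3.31e-06) with palbociclib and by -0.48 (SE 0.08, adjusted p 0.00229) with ruxolitinib. VLDLR, a lipoprotein receptor, fell after irradiation (-0.98) and rose with palbociclib (0.96), from 353, 333 and 335 to 727, 592 and 672, the proliferating level being 643 to 701. CAV1, the coat protein of caveolae, also rose with palbociclib (0.78).

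Of 7 tested LXR partners and further LXR targets, 2 fell with palbociclib, NR1D1 (-1.34) and the lipid transfer protein PLTP (-0.49), and 4 fell at equal totals. By limma 0 rose, also at an unadjusted p under 0.05, and 0 rose by edgeR or DESeq2. NR1D1, a nuclear receptor of the circadian clock, had risen after irradiation (1.05) and fell with ruxolitinib too (-0.64). In the isoprenoid branch after FDPS, 4 of 11 genes rose and 1 fell with palbociclib, and at equal totals 5 fell and 0 rose. COQ2 of ubiquinone synthesis fell after irradiation (-1.45) and again with palbociclib (-0.50). Of 15 genes of triglyceride synthesis and lipid droplets, 5 rose and 6 fell with palbociclib (1 and 8 at equal totals, close to the shares of all tested genes). Of 15 genes of fatty acid oxidation, 7 rose and 2 fell (1 and 4 at equal totals), with CPT1A, the carnitine palmitoyltransferase of mitochondrial entry, higher after irradiation (0.80) and lower with palbociclib (-0.52). With DMSO against proliferating cells, 3 of the 11 isoprenoid genes rose and 5 fell (4 and 4 at equal totals), 8 of the 15 triglyceride genes rose and 4 fell, and 5 of the 15 oxidation genes rose and 4 fell (9 and 2 at equal totals). With ruxolitinib, 3 genes of these 7 lists were called, all lower: NPC1, NR1D1 and the monoglyceride lipase MGLL (-0.27). The lists held 11, 11, 14, 18, 15, 15 and 7 tested genes. The share that fell was thus close to that of all tested genes, of which 3.42% fell and 1.1% rose with ruxolitinib.

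Markers of other cell types moved with palbociclib beside these genes. Of all tested genes 26% rose and 22.3% fell with palbociclib against DMSO (8.36% and 46% at equal totals). Of 7 epithelial markers 4 passed the filter and 3, KRT8 (0.59), KRT18 (1.13) and KRT19 (0.64), rose. The summed level of all 7 was 1802 to 2052 with DMSO and 3619 to 4236 with palbociclib, while EPCAM stayed at 9.52 to 35.5 and KRT5 and SFTPC under 1 in all 12 libraries. Of 5 endothelial markers TEK rose (0.70), and the sum was 2389 to 2554 with DMSO and 3501 to 4380.1 with palbociclib. CDH5 was at 0.00 to 2.71, KDR at 0.00 to 10.4 and PECAM1 at 1.90 to 15.3 over all libraries. Of 6 immune markers 2 passed the filter and both, CD68 (-0.74) and CD14 (-1.14), fell, and the sum was 1224 to 1308 with DMSO and 697 to 806 with palbociclib. CD3E was at 0.00 to 2.71 and PTPRC at 0.00 to 9.90. Of 6 adipocyte markers only PPARG passed and it was not called with palbociclib (-0.12), but was called lower at equal totals, and of 5 hepatocyte markers none passed. The fibroblast markers made up 3.63% to 3.67% of the summed values with DMSO and 4.50% to 4.75% with palbociclib, with 8 of 10 called higher and 1 lower. In proliferating cells they made up 5.50% to 5.60%, and 8 of 10 were lower and 2 higher with DMSO. There the 2 tested immune and 2 tested endothelial markers rose, 2 of 4 epithelial markers rose and 1 fell, and PPARG fell. Of all tested genes 33% rose and 39.3% fell in that comparison. The part of these shifts in the lipid results was not tested.

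**Figure D4:**
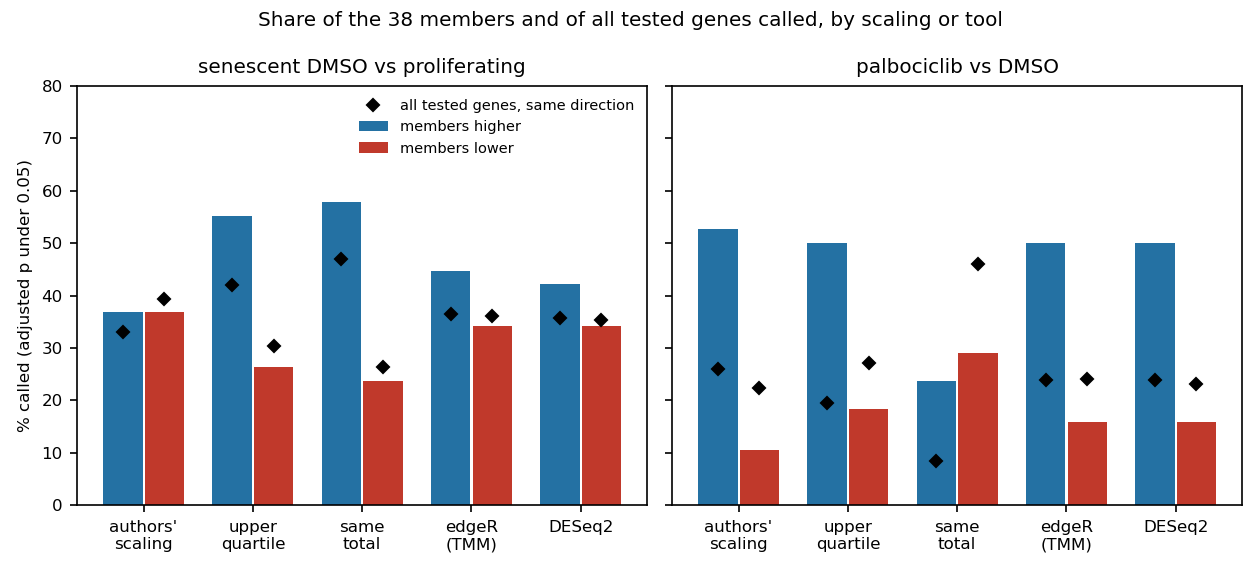
Percent of the 38 members called higher (blue bars) or lower (red bars) at an adjusted p under 0.05 under 3 scalings and 2 count-based tools, for irradiation with DMSO (left) and for palbociclib (right); black diamonds give the same percent over all tested genes. With palbociclib the members' higher bar lies above its diamond under all 5, at 20 to 9 members, and the lower bar lies below its diamond under all 5, including equal totals, where more members were lower (11) than higher (9).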

How the data were processed

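IMR90 libraries in 4 groups of 3 were analysed. Per the submitters' processing notes the tools were Trimmomatic 0.38.1, HISAT2 2.2.1, featureCounts 2.0.3, FastQC 0.74, MultiQC and DESeq2 2.11.40.8 with build hg38; the annotation and strand setting are not given in the sources used here. The deposited signal is gene counts that the authors divided by a size factor per library. All 160380 of 160380 values above 0 came out as whole reads (tolerance 0.01) when divided by each library's step, and the recovered reads were used only for the count-based alternatives. The table used here held 16383 genes, so its totals are not full library depths. Its columns matched the labels by group but not by replicate number, and 0 columns were left unmapped.

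Genes with a mean of at least 10 were tested with limma 3.58.1 (R 4.3.3) on log2(value + 1), in 1 fit of 4 group means over the 12 libraries with a mean-dependent prior variance (trend) and Benjamini-Hochberg adjustment over all 11242 genes. The members and lists were chosen with earlier results of these data known. Up to 12 members per comparison have full statistics: the called members with the largest change in each role plus INSIG1, SREBF1, SREBF2, ABCA1 and ABCG1. From each other list at most 2 called genes per direction were named, by size of change, if the group with more signal averaged 100 or above. On data simulated for palbociclib against DMSO (11242 genes, 11042 of them unchanged), 92% of genes lowered by 1 on the log2 scale were called. So were 98% of those raised by 1, 60% of those changed by 0.38 either way, and 0.0996% of unchanged genes. Far more genes were called in the measured palbociclib comparison, and the rates depend on how many genes change. No 2 replicates agreed within counting noise. Alternatives were pseudocounts of 0.1 and 5, no filter, a minimum mean of 50, equal totals, equal upper quartiles, no trend, 2 groups only, each library left out, edgeR 4.0.16 and DESeq2 1.42.0.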

Additional observations from a re-analysis of the deposited data

How the results depend on the processing

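Of 5010 recomputed values of single members under 22 alternatives, 4753 kept their side of the threshold, 148 lost the call, 98 gained it and 11 changed sign while called in 1 of the 2 fits. Values called in neither fit, such as EBP, ELOVL6 and INSIG1 for palbociclib against DMSO, also changed sign and are counted among the 4753. Equal library totals gave 22 members higher and 9 lower for DMSO against proliferating cells, 9 higher and 11 lower for palbociclib against DMSO, 2 lower for ruxolitinib against DMSO, and 7 higher and 9 lower for palbociclib against ruxolitinib. For ruxolitinib against proliferating cells they gave 20 higher and 9 lower. Equal upper quartiles gave 7 lower for palbociclib against DMSO, and 13 higher and 7 lower against ruxolitinib. For ruxolitinib against DMSO a fit of the 2 groups alone gave 2 higher and 3 lower, and DESeq2 gave 2 lower. The 11 sign changes of called values came at equal totals: SREBF2 (0.0146) and STARD4 (0.0438) for DMSO against proliferating cells; SCAP (-0.21), FASN (-0.0132), FADS1 (-0.13) and LPIN1 (-0.0698) for palbociclib against DMSO; FASN (-0.0683), FADS1 (-0.0207), LPIN1 (-0.0318) and SOAT1 (-0.13) for palbociclib against ruxolitinib; and FDPS (0.14) for ruxolitinib against proliferating cells. The members' median for palbociclib against ruxolitinib also changed sign there (-0.00777). Leaving out 1 library gave 11 to 16 members higher and 13 to 15 lower for DMSO against proliferating cells, 19 to 22 and 3 to 6 for palbociclib against DMSO, 0 to 0 and 0 to 2 for ruxolitinib against DMSO, 15 to 21 and 3 to 5 for palbociclib against ruxolitinib, 18 to 20 and 11 to 13 for palbociclib against proliferating cells, and 12 to 15 and 12 to 13 for ruxolitinib against proliferating cells. No paired analysis was possible because the value columns carry library names and not the labels' replicate numbers, so the replicate block was not run. Low counts limit ACACA, NR1H3, HSD17B7 and TM7SF2 most.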
